A study of Homo sapiens with 4 samples.

Results

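The CD3 complex and the T-cell coreceptors are the surface chains by which a T cell recognises antigen and is recognised as a T cell. Here they are 10 genes, CD3D, CD3E, CD3G, CD247, CD4, CD8A, CD8B, CD2, CD5 and CD28, and they were chosen by name. Every probe set that the platform annotation assigns to one of these symbols was taken, which gave 28 of the 49293 probe sets tested. The arrays held RNA of SeAx, a cell line of Sézary syndrome, the leukaemic form of cutaneous T-cell lymphoma. The control group is 2 SeAx arrays labelled Control, which the text of the study describes as cells without transduction. The miR-124 group is 2 SeAx arrays labelled miR124, from cells that received a lentivirus encoding miR-124 and, by the methods, were kept under puromycin. Vector, selection and miR-124 therefore differ together between the groups and cannot be told apart. Both groups are 1 cell line. Whether the 2 arrays of a group came from separate cultures is not given in the sources used here. A p-value thus reflects the spread between these arrays, which may be technical, together with a variance that limma borrows from all probe sets.

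The T-cell receptor itself has short tails and signals through the chains bound to it. CD3 delta, gamma and epsilon form pairs around the receptor, each pair containing CD3 epsilon, and a homodimer of the zeta chain from CD247 completes the complex. Their cytoplasmic tails carry tyrosine motifs that LCK phosphorylates and on which ZAP70 docks, while CD4 and CD8 bring LCK to the receptor when they bind MHC class II or class I. CD2 binds CD58, CD28 binds CD80 and CD86, and CD5 dampens the signal. Sézary cells typically carry CD4 and often lose other T-cell surface antigens.

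Of the 10 genes, 5 had sequences upstream of a start site in the RefSeq table used here (GRCh38.p14), namely CD3D, CD247, CD8A, CD2 and CD28. The windows of CD3D, CD247 and CD2 are shown because these genes had a probe set above the array background, and that of CD28 because none of its probe sets did. CD8A has no probe set above background either, but 4 start sites are listed for it and the arrays do not tell which is used, so its windows are described without being shown. Each is the 250 bases before the start site, 5′ to 3′ on the gene's strand. Capitals mark matches on either strand to TATAAA (the TATA box), TGTGGT (the core bound by RUNX factors), AGGAAG (an ETS core) or CANNTG (the E-box).
CD3D, chr11:118342706-118342955, minus strand: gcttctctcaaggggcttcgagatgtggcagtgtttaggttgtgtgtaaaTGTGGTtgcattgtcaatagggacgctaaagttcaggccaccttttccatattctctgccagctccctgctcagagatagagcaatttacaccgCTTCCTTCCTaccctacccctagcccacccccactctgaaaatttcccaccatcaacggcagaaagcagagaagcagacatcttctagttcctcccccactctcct
CD247, chr1:167518530-167518779, minus strand: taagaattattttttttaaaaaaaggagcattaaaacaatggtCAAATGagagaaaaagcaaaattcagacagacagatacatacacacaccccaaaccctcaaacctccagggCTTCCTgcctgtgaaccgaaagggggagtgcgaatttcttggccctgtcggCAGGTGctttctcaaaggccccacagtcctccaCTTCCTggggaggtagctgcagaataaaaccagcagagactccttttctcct
CD2, chr1:116754180-116754429, plus strand: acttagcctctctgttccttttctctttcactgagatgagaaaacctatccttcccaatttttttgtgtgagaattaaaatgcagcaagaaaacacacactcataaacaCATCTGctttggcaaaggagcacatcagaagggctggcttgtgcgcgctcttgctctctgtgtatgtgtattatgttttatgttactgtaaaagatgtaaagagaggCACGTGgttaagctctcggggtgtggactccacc
CD28, chr2:203706389-203706638, plus strand: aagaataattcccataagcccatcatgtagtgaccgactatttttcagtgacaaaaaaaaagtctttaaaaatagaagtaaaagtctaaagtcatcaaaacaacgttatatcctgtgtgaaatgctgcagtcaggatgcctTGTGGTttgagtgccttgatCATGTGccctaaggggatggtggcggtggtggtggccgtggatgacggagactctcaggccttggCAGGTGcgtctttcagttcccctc
The RUNX core was present once in the windows of CD3D and of CD28, and 11.0% of the 35116 windows in the table hold it. The ETS core occurred in 2 overlapping copies in CD3D and in 2 separate copies in CD247, against 28.7% of all windows. CD247, CD2 and CD28 held 2 E-boxes each and CD3D held none, with an E-box in 61.8% of all windows. TATAAA, present in 10.7% of all windows, occurred in none of the 4 shown. Of the 4 windows of CD8A, 3 held an E-box and 0 held any of the other motifs. A match is a match of letters only, and both the E-box and the RUNX core occurred in genes above and not above background.

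The arrays measure RNA, not protein at the cell surface. No detection call was used here. Which of these chains SeAx expresses as RNA was read from each probe set against the array's own background probe sets. There are 23 of them, named for probes with 3 to 25 G or C bases, and they read 2.97 to 3.01 at the lowest and 9.54 to 9.64 at the highest number, with the next to highest under its lower neighbour on all 4 arrays. Values are log2 signals after RMA. On the control arrays their mean was 5.18 and 5.18 and their 95th percentile 8.79 and 8.80. On the miR-124 arrays the mean was 5.22 and 5.23 and the 95th percentile 8.87 and 8.88. A probe set was called above background where it exceeded that 95th percentile on all 4 arrays. The G and C content of the member probes was not used here, so any value under the 95th percentile, also one under the mean, leaves expression undecided. Where a gene has several probe sets, they are numbered from its brightest, over the mean of the 4 arrays, to its dimmest. The brightness of a probe set also depends on its own sequence, so it was not used to rank one gene over another.

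RNA of the delta and gamma chains of CD3, the zeta chain and CD2 stood above background in SeAx, whereas CD3E, CD4, CD8A, CD8B, CD5 and CD28 had no probe set there. This is 4 of the 28 probe sets and 4 of the 10 genes. Over the whole array, 28.1% of probe sets and, on the brightest probe set, 34.7% of genes were above background, so that the share of genes was near that of all genes. Against the stricter limit of the highest background probe set, which 19.1% of all probe sets exceeded, CD3D, CD3G and CD2 remained and CD247 did not. Against the mean of the background probe sets, 16 of the 28 passed, with 75.1% of all probe sets.

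**Figure D1:**
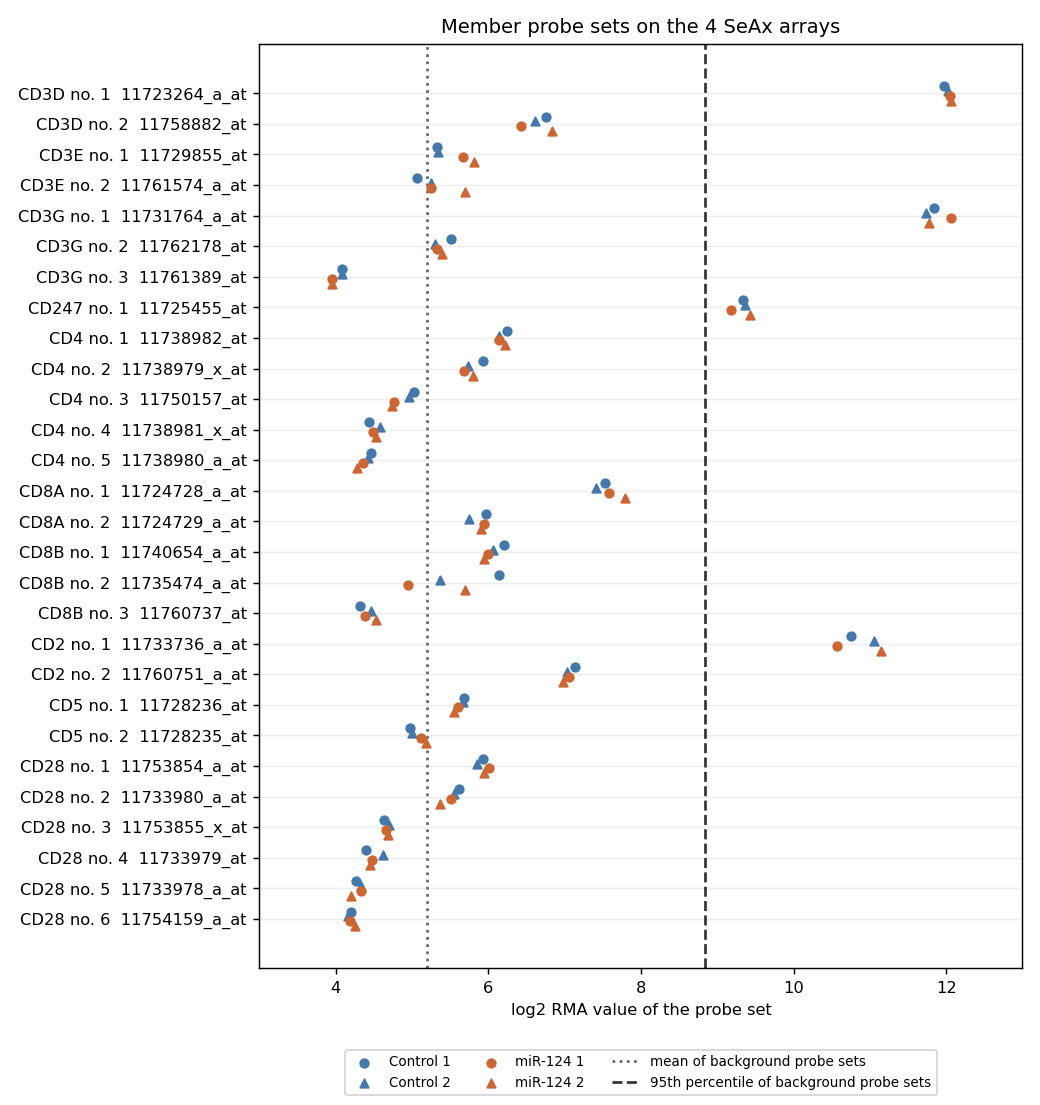
Log2 RMA values of the 28 member probe sets (rows) on the 4 arrays, with blue for control, orange for miR-124, circles for arrays numbered 1 and triangles for arrays numbered 2. The dotted and dashed lines are the mean and the 95th percentile of the background probe sets, averaged over the arrays. A single probe set each of CD3D, CD3G, CD247 and CD2 lies to the right of the dashed line on all 4 arrays.

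CD3D, which encodes the delta chain, had values of 11.97 and 12.02 in control cells and 12.05 and 12.07 in miR-124-transduced cells on probe set 1. Both miR-124 arrays lay above both controls, with a log2 difference between the means of 0.07 ± 0.08 (SE; limma, unadjusted p = 0.47). CD3G, which encodes the gamma chain, had values of 11.84 and 11.73 in control cells and 12.06 and 11.78 in miR-124-transduced cells on probe set 1. The groups overlapped, with a log2 difference of 0.13 ± 0.13 (SE). The zeta chain gene CD247 was measured by 1 probe set, at 9.34 and 9.36 in control cells and 9.18 and 9.43 in miR-124-transduced cells. The miR-124 arrays lay on either side of the controls, and the log2 difference was -0.05 ± 0.12 (SE). On all 4 arrays CD247 exceeded the 95th percentile of the background, by less than 1 unit.

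CD3E encodes the epsilon chain that every CD3 pair contains. CD3E, CD3D and CD3G follow each other on chromosome 11 with no other protein-coding gene between them in the RefSeq annotation. On the brighter of its 2 probe sets, CD3E had values of 5.33 and 5.34 in control cells and 5.67 and 5.82 in miR-124-transduced cells. These lie over the mean of the background and under its 95th percentile on every array, where expression is undecided. Both miR-124 arrays were above both controls, with a log2 difference of 0.41 ± 0.09 (SE, 95% interval 0.16 to 0.66), or 1.33-fold. The unadjusted p of 0.0088 was the lowest of the 28 probe sets, the adjusted p over all probe sets was 0.88 (limma, Benjamini-Hochberg), and the fold change was under the 1.5 that the study required. Probe set 2 read 5.07 and 5.25 in control cells and 5.25 and 5.69 in miR-124-transduced cells. The groups overlapped there, and the log2 difference was 0.31 ± 0.18 (SE; limma, unadjusted p = 0.15). This value rests on single arrays, since it was 0.53 without miR-124 replicate 1 and 0.089 without miR-124 replicate 2. The mean of the background was also higher in both miR-124 arrays, as given above, and its part in the CD3E difference was not tested.

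The other probe sets of CD3D and CD3G were dim, which shows how far probe sets of 1 gene can lie apart. CD3D read 6.43 to 6.84 on probe set 2 over the 4 arrays. CD3G read 5.30 to 5.51 on probe set 2 and 3.95 to 4.09 on probe set 3. The last of these had nearly the same value within a group, 4.09 in both controls and 3.95 in both miR-124 arrays. Its groups did not overlap, with a log2 difference of -0.14 ± 0.08 (SE; limma, unadjusted p = 0.16). Here the SE comes almost wholly from the variance that limma borrows from all probe sets, not from these arrays. A dim probe set thus does not show that a gene is silent, and a gene's reading rests on its brightest one.

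No probe set of the coreceptors was above background. CD4, which binds MHC class II, had 5 probe sets with values from 4.28 to 6.24. The brightest read 6.24 and 6.14 in control cells and 6.14 and 6.22 in miR-124-transduced cells, with overlapping groups. The log2 differences of the 5 probe sets ran from -0.24 to -3.3e-05, and that of the brightest was -0.015. Those of probe sets 1, 2 and 4 changed sign with 1 array left out, so no common decrease was shown. Probe sets 4 and 5 name the same target sequence. On probe set 3 CD4 was at 5.03 and 4.96 in control cells and 4.77 and 4.74 in miR-124-transduced cells, all under the mean of the background. There the log2 difference was -0.24 ± 0.09 (SE), with a limma p of 0.042 before and 0.88 after adjustment, and with the dim signal the size is uncertain. CD4, a usual marker of Sézary cells, thus had no probe set over the 95th percentile of the background, which does not show that SeAx lacks it.

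CD8A and CD8B encode the chains of CD8, which binds MHC class I, and they neighbour each other on chromosome 2. CD8A read 7.53 and 7.41 in control cells and 7.59 and 7.80 in miR-124-transduced cells on probe set 1. This lies between the mean and the 95th percentile of the background, where expression is undecided. Both miR-124 arrays were above both controls, with a log2 difference of 0.22 ± 0.11 (SE; limma, unadjusted p = 0.11). Probe set 2 of CD8A read 5.75 to 5.97, with a log2 difference of 0.06. CD8B had 3 probe sets with values from 4.32 to 6.21. Probe set 2 of CD8B had the widest spread of all members, with 6.13 and 5.36 in control cells and 4.94 and 5.69 in miR-124-transduced cells. Its log2 difference of -0.43 ± 0.36 (SE) had a 95% interval of -1.40 to 0.53, which holds both no change and a decrease of more than 1 unit. It was -0.82 without control replicate 2 and -0.05 without control replicate 1. On its brightest probe set CD8B had a mean of 6.14 ± 0.10 in control cells and 5.97 ± 0.04 in miR-124-transduced cells (SD, n = 2 each), with both miR-124 arrays under both controls and a log2 difference of -0.17 ± 0.10 (SE).

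CD2, the adhesion receptor for CD58, read 10.75 and 11.06 in control cells and 10.58 and 11.15 in miR-124-transduced cells on probe set 1. In both groups the array numbered 2 was the higher, and the log2 difference between the groups was -0.04 ± 0.23 (SE, 95% interval -0.65 to 0.57). Its other probe set read 6.99 to 7.14. CD5, an inhibitory receptor of T cells that lies next to CD6 on chromosome 11, read 5.69 and 5.67 in control cells and 5.60 and 5.55 in miR-124-transduced cells on its brighter probe set. Its dimmer probe set read 4.98 and 4.99 against 5.11 and 5.18. The groups did not overlap on either, and the log2 differences of -0.10 and 0.16 had opposite signs. CD28, the costimulatory receptor, had 6 probe sets with values from 4.16 to 6.01, none above background. Its brightest read 5.93 and 5.85 in control cells and 6.01 and 5.95 in miR-124-transduced cells, and over the 6 the log2 differences ran from -0.14 to 0.09, 3 of them positive and 3 negative.

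None of the 28 probe sets passed the threshold of the study between the conditions, an unadjusted p under 0.05 with a fold change above 1.5. Over the array 0.185% of probe sets passed it (limma), or 91 of them, so that fewer than 1 of 28 would pass at that share. The study itself reported many more genes at this threshold. Counted by gene on the brightest probe set, 0.153% of 18244 genes passed it here. The study's figure caption speaks of cell lines in the plural, whereas these arrays are SeAx alone, and the reason for the gap was not tested. The count over the array depends on single arrays, with 129 without control replicate 1, 309 without control replicate 2, 1078 without miR-124 replicate 1 and 203 without miR-124 replicate 2, while 0 of the 28 passed in each of these fits. An unadjusted p under 0.05 was found for 2 of the 28, CD3E and CD4 as given above, against 4.73% of all probe sets, and for 0 an adjusted p under 0.05, against 0% of all. Both groups lay apart on 11 of the 28, with miR-124 higher on 5 and lower on 6, while 34.7% of all probe sets lay apart, 18.8% with miR-124 higher and 15.9% with miR-124 lower. The log2 fold changes had a median of -0.03, with 11 positive and 17 negative, beside a median of 0.0047 and 51.5% positive over all probe sets. For 24 of the 28 the 95% interval of the difference lay within 1.5-fold in either direction. The exceptions were both probe sets of CD3E, the CD8B probe set with the wide spread and the bright CD2 probe set. Of the 24, only probe set 1 of CD3D, probe set 1 of CD3G and that of CD247 were above background. For the others expression is undecided, so a narrow interval there does not bound a change of RNA. The share over all probe sets was not counted. With 2 arrays against 2, an exact two-sided permutation test of a single value cannot give a p below 0.333, so none was used.

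**Figure D2:**
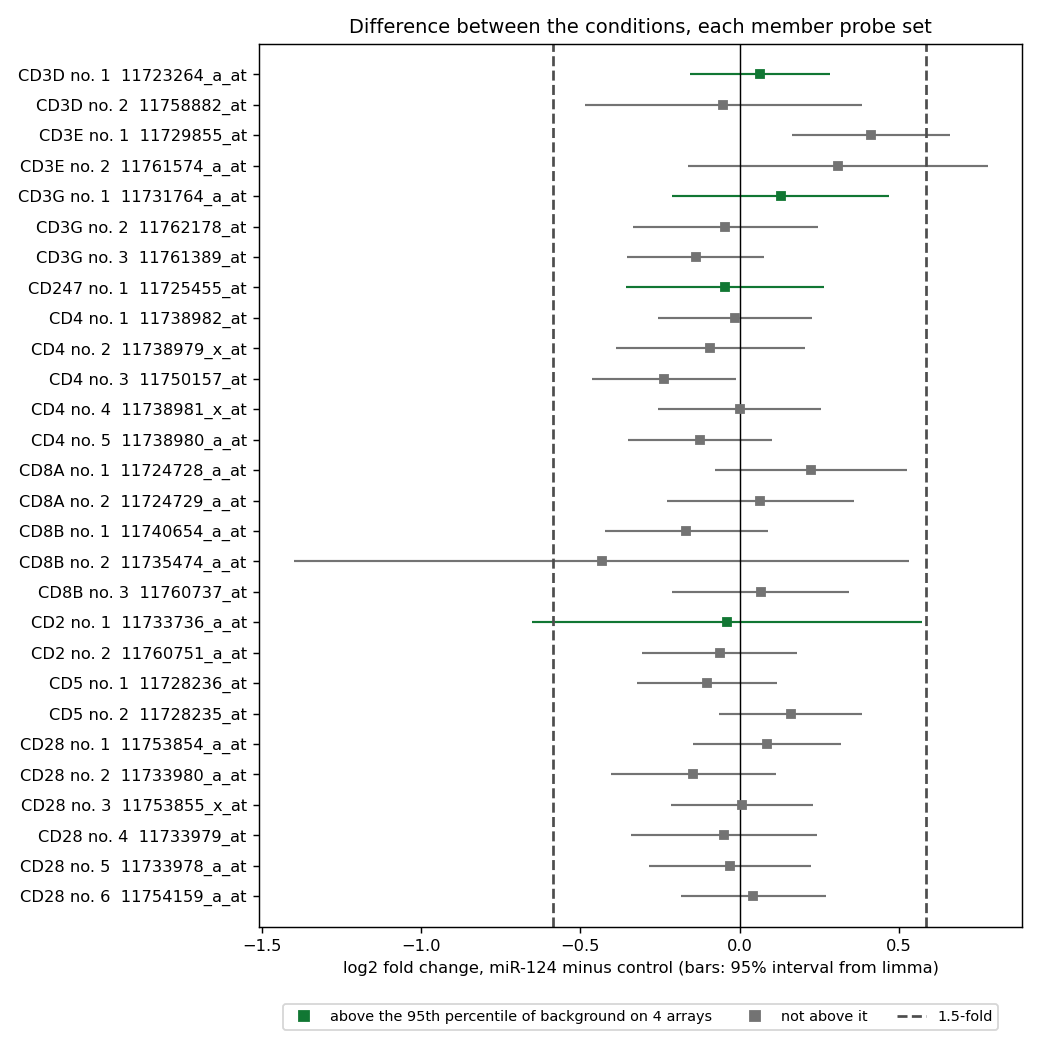
Log2 fold change of each member probe set (miR-124 minus control, n = 2 arrays each) with its 95% interval from limma, in green where the probe set is above background. The dashed lines mark a 1.5-fold change. The point estimates run from -0.43 for CD8B to 0.41 for CD3E, and 24 of the 28 intervals stay between the dashed lines. Of these 24, only the green ones of CD3D, CD3G and CD247 are above background.

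The array number moved CD2 more than the condition did. The difference of the arrays numbered 2 from those numbered 1 was 0.44 on the bright CD2 probe set and 0.31 on the second probe set of CD3E, and it lay between -0.19 and 0.14 on the other 26. No member differed by more than 1.5-fold between the numbers, against 2.46% of all probe sets. What the number stands for is not given in the sources used here.

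**Figure D3:**
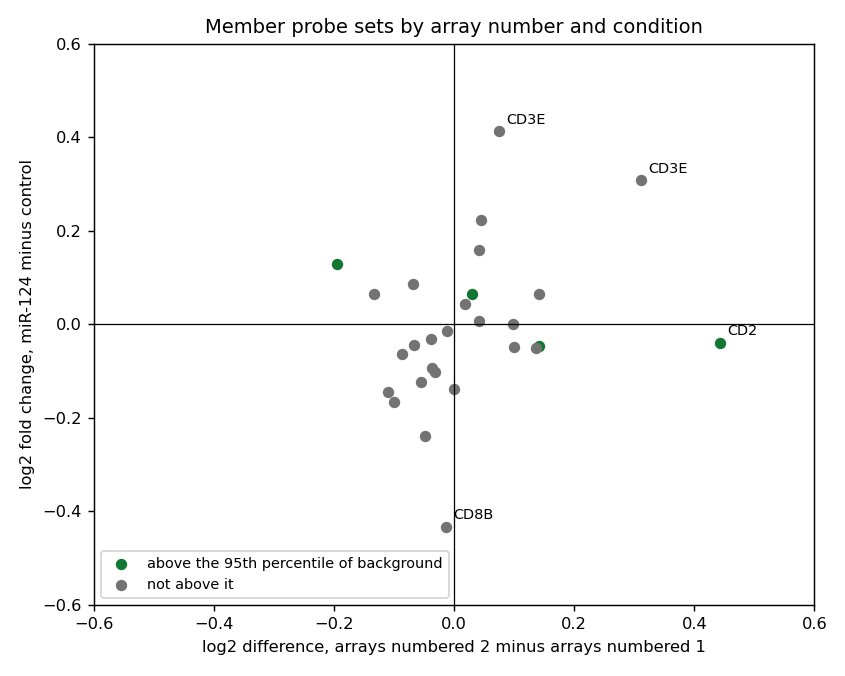
Each member probe set by its log2 difference between the arrays numbered 2 and 1 (horizontal) and between miR-124 and control (vertical). CD2 lies at 0.44 and -0.04, and the CD3E probe sets lie at 0.41 and 0.31 on the vertical axis.

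Genes that act with these chains gave a similarly divided picture in SeAx. TRBC1 and TRBC2, the constant regions of the T-cell receptor beta chain, were above background on all 4 arrays, TRBC1 at 11.10 to 11.15 and TRBC2 at 12.37 to 12.55 on their brightest probe sets. They are near-identical in sequence, so their signals cannot be separated. TRAC and the constant regions of the gamma and delta chains are not named by a probe set of their own here. Of the ligands, CD58, which binds CD2, read 12.37 and 12.40 in control cells and 12.29 and 12.36 in miR-124-transduced cells. CD80 and CD86, the ligands of CD28, read 12.20 to 12.57 and 12.14 to 12.32, although CD28 itself had no probe set above background. Of the kinases, ZAP70, which binds the phosphorylated CD3 and zeta tails, read 9.41 and 9.69 in control cells and 9.66 and 9.97 in miR-124-transduced cells (log2 difference 0.26 ± 0.16, SE, with 0.42 without miR-124 replicate 1 and 0.11 without miR-124 replicate 2). LCK, which starts the signal, read 6.41 to 6.61 on the brightest of its 5 probe sets and was not above the 95th percentile of the background. ICOS, a receptor of the CD28 family, read 12.14 to 12.34, while CTLA4, the neighbour of CD28 on chromosome 2, read 7.09 to 7.87 and CD6 read 7.03 to 7.46, both under the 95th percentile. ICOS, CTLA4 and CD6 were chosen after their values were seen.

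**Figure D4:**
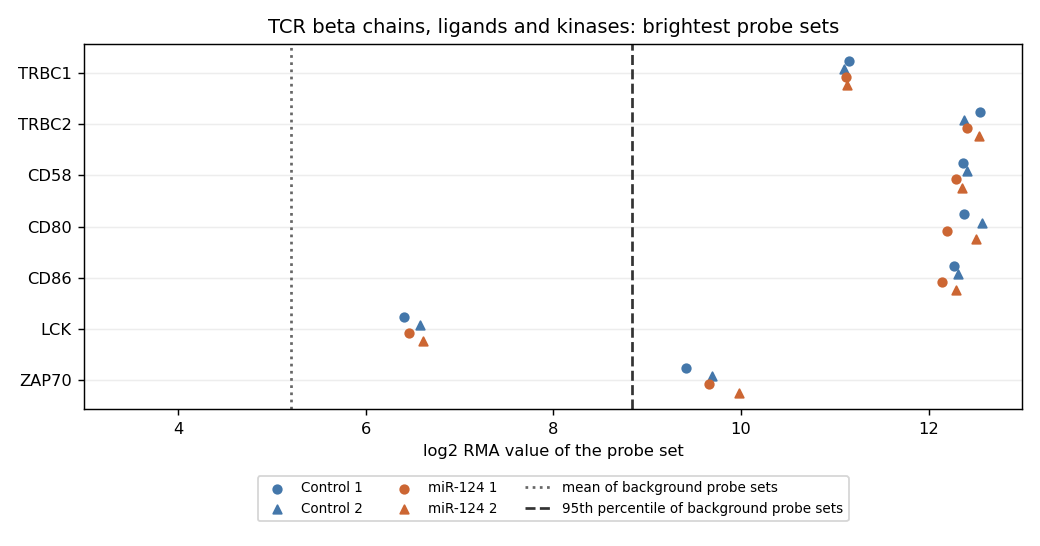
Log2 RMA values of the brightest probe set of TRBC1, TRBC2, CD58, CD80, CD86, LCK and ZAP70 on the 4 arrays, with the symbols and background lines of the plot of member levels. LCK at 6.41 to 6.61 is the one of the 7 to the left of the dashed line.

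Between the conditions, none of the 61 genes of the same pathway that the annotation names reached the threshold of the study when read on the brightest probe set, against 0.153% of all genes, and 2 had an unadjusted p under 0.05 (limma), against 4.46% of all genes. These 2, named after their values were seen, were CSK, the kinase that inactivates LCK, and UBASH3A, a negative regulator of T-cell receptor signalling. CSK read 9.63 and 9.62 in control cells and 10.01 and 10.04 in miR-124-transduced cells (log2 difference 0.40 ± 0.08, SE). UBASH3A read 8.88 and 8.94 against 9.26 and 9.31 (log2 difference 0.37 ± 0.09, SE). Of 35 signalling genes 24 had a positive and 11 a negative log2 fold change, with a median of 0.05. Of 23 other surface receptors and ligands 6 were positive and 17 negative, with a median of -0.06, and of 3 receptor chain genes 2 were positive and 1 negative. The median over all genes was 0.0056.

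Of 7 markers of T cells listed for the check of the label, 6 are named by a probe set and 5 were above background on the brightest one, namely CD3D, CD3G, CD247, CD2 and TRBC1. CD3E was not, and TRAC is not named. CD3D, CD3G, CD247 and CD2 are members described above, so the list adds only TRBC1 to them. Outside the list, CD4, CD5, CD28, CD8A, CD8B, CD6, CD7, CD27, PTPRC and LCK were not above background on the brightest probe set. ICOS, CD96, TRBC2 and ZAP70, also outside it, were. Of the pathway genes, 2 of 3 receptor chain genes, 11 of 23 other surface receptors and ligands and 23 of 35 signalling genes were above background. Over all genes, the share above background on the brightest probe set was 34.7%. Of 40 marker genes of B, myeloid, NK, epithelial, fibroblast, endothelial and erythroid cells, 5 were above background, PAX5, BLK, CSF1R, CDH1 and COL3A1, and none passed the threshold between the conditions. Of the 40, only BLK, a kinase gene of B cells, had an unadjusted p under 0.05 (limma), against 4.46% of all genes. Its adjusted p over all probe sets was 0.88 (limma, Benjamini-Hochberg). BLK read 9.63 and 9.81 in control cells and 10.23 and 10.26 in miR-124-transduced cells, with both miR-124 arrays above both controls and a log2 difference of 0.53 ± 0.10 (SE), or 1.44-fold. Over the 6 named B-cell markers the mean level was 7.54 to 7.65 in control cells and 7.51 to 7.64 in miR-124-transduced cells, and the part of BLK in the differences of the members was not tested. The medians of the arrays were 7.28 to 7.32.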

How the data were processed

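RNA of SeAx cells was hybridised to 4 Affymetrix PrimeView arrays. Before deposit, the authors ran RMA (background correction, quantile normalization and summary by probe set), and the deposited log2 values were used as they are. Per the labels, RMA and limma were the tools. Quantile normalization hides any change of total RNA, so differences are relative within an array. Genes were named through the platform annotation. All 10 members matched a current RefSeq gene record by identifier, and no member shared a probe set with another symbol. Of 49495 probe sets, 202 array controls were not tested. The others were fitted by lmFit and eBayes of limma (version 3.58.1, R 4.3.3) with condition alone, which left 2 residual degrees of freedom. The eBayes step draws each variance towards a value common to all probe sets, with 2.56 prior degrees of freedom. P-values were adjusted over all tested probe sets by Benjamini-Hochberg. For values per gene, the brightest probe set stood for each of 18244 genes. The fit was tested on simulated data. All members were described, and of the pathway lists the genes past the threshold and the direct partners TRBC1, TRBC2, CD58, CD80, CD86, LCK and ZAP70 were to be named. The members and lists were chosen with earlier results of these data known. Alternatives were the array number as a block, each array left out, cyclic loess, a filter on dim probe sets, array weights, a trended robust prior, averaging a gene's probe sets, and other background limits. With 2 arrays per group, their number limits the precision.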

Additional observations from a re-analysis of the deposited data

How the results depend on the processing

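No member probe set and no member gene passed the threshold under any alternative run, with each array left out in turn too (0 in each). The count of members above background was 4 and became 16 with the mean of the background probe sets as the limit. It was 3 with the highest background probe set, 3 with the 95th percentile of the other-cell-type markers and 4 after cyclic loess. The filter on dim probe sets left 5 of the 28 to test. With the array number as a replicate block, 0 member probe sets and 1 pathway gene, PTPRC, passed. The members with an unadjusted p under 0.05 (limma) then went from 2 to 3, with probe set 2 of CD3E at 0.028, and ZAP70 was at 0.018. In that fit 49 genes over the array passed the threshold, against 28 without the block. Its share of all probe sets with a p under 0.05 was not counted. With 1 array left out, a group holds a single array, and some pathway genes passed in some of these fits. The count over all probe sets rose there as well, as given above. No source says that a number pairs the arrays. Across all probe sets, the deviations of arrays of equal number correlated at 0.64, and the block moved the count of all probe sets past the threshold from 91 to 167. TRBC1, at a log2 fold change near 0, became -0.0080 after cyclic loess and -0.0054 with the mean of its probe sets.
With 1 array left out, some log2 differences near 0 changed sign, none of them past the threshold. They ranged from -0.33 to 0.25 for CD2 (probe set 1), -0.17 to 0.081 for CD247 (probe set 1), -0.10 to 0.040 for CD28 (probe set 5), -0.16 to 0.063 for CD28 (probe set 4), -0.024 to 0.040 for CD28 (probe set 3), -0.25 to 0.15 for CD3D (probe set 2), -0.0098 to 0.27 for CD3G (probe set 1), -0.15 to 0.060 for CD3G (probe set 2), -0.19 to 0.0060 for CD4 (probe set 2), -0.077 to 0.077 for CD4 (probe set 4), -0.064 to 0.035 for CD4 (probe set 1), -0.27 to 0.038 for CD80, -0.047 to 0.18 for CD8A (probe set 2), -0.0055 to 0.14 for CD8B (probe set 3), -0.041 to 0.12 for LCK, -0.027 to 0.027 for TRBC1 and -0.072 to 0.10 for TRBC2.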
